A study of Mus musculus with 4 samples.

Results

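The major urinary protein (Mup) genes encode small secreted proteins of the lipocalin family, and 7 of them, Mup3, Mup4, Mup5, Mup11, Mup20, Mup21 and Mup22, were described by the H3K23pr peaks called around them in mouse liver with and without RPN11. H3K23pr is the propionylation of lysine 23 on histone H3. These genes were 7 of 21757 protein-coding genes in the RefSeq table of GRCm38.p6, the assembly behind mm10, and 7 of the 24 protein-coding Mup entries of the cluster on chromosome 4. For each gene, every called peak that overlapped the stretch from 5 kb below the lower end of the gene to 5 kb above the upper end was taken. The genes were chosen by the called peaks of these same libraries, in both genotypes, so the peak counts near them are given as a description and carry no test.

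The libraries came from liver of male C57BL/6 mice of 2 genotypes. The control, called WT after its sample titles, was RPN11 flox/flox, and the other, called KO, carried a hepatocyte-specific RPN11 knockout. Each genotype had 1 H3K23pr immunoprecipitate (IP) and 1 input, so no difference between genotypes has a replicate check and no p-value is given. The line that drives the deletion, the age of the mice and the number of mice behind each library are not given in the sources used here. Liver cells other than hepatocytes keep RPN11 in such a knockout, and in bulk liver chromatin fewer cells of a type and less of the mark per cell cannot be told apart.

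Hepatocytes secrete major urinary proteins into the blood, and the kidney passes them into the urine, where they carry small volatile pheromones and act as scent signals. Pulsatile growth hormone, acting through its receptor, the kinase JAK2 and the transcription factor STAT5, drives the high male level in liver, with further input from androgens and thyroid hormone. The genes lie in 1 tandem cluster. Its central copies arose by recent duplication and are almost the same in sequence, whereas genes near its edges, such as Mup3, Mup4, Mup5, Mup20 and Mup21, are more diverged.

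The WT immunoprecipitate gave 13615838 fragments once duplicates were filtered, with a mean length of 97 bp, and the KO immunoprecipitate 15468265, with a mean of 71 bp. WT had 54397 called peaks and KO 41907. The caller's background over most of the genome, its expected number of IP fragments at a site, was 0.692 fragments in WT and 0.568 in KO. Psmd14, the gene that encodes RPN11, had 7 peaks in WT and 10 in KO within 5 kb. Where in the gene the deletion lies was not used here, so these peaks say nothing on the knockout. Of 6 hepatocyte markers, 3 had a WT peak within 5 kb, beside 48% of all protein-coding genes, and 4 a KO peak, beside 33.5%. The 16 markers of other cells were 4 for each type. For Kupffer cells 2 had a WT peak and 2 a KO peak, and for sinusoidal endothelial cells 1 and 1. For stellate cells the numbers were 4 and 2, and for bile duct cells 2 and 1. Peak presence did not separate the cell types, and with so few markers nothing further is read from these counts. Pileup is the number of IP fragments over the summit of a peak, and fold is the pileup over the caller's local background with 1 added to both.

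RefSeq promoter sequence was held for 4 of the 7 genes, Mup11, Mup4, Mup3 and Mup21, all on the minus strand. The 250 bases before each start are shown because they let a reader see what they share with the other Mup promoters held. Bases in capitals lie in a run of at least 30 bases that is also found, letter for letter, in the promoter of another Mup gene of the cluster. The sequences are those of GRCm38.p6 at chr4:60662396-60662645 for Mup11, chr4:59960668-59960917 for Mup4, chr4:62087318-62087567 for Mup3 and chr4:62150842-62151091 for Mup21, each read 5′ to 3′ on the minus strand. The start that the promoter table uses for Mup11 lies inside the gene span given below, so the last bases of its sequence belong to that span.
Mup11: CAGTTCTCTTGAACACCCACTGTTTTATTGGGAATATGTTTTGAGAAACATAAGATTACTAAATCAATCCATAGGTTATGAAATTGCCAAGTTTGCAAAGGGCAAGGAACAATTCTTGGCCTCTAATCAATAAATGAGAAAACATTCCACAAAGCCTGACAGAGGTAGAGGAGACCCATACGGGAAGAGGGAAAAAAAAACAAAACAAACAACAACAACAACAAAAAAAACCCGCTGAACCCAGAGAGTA
Mup4: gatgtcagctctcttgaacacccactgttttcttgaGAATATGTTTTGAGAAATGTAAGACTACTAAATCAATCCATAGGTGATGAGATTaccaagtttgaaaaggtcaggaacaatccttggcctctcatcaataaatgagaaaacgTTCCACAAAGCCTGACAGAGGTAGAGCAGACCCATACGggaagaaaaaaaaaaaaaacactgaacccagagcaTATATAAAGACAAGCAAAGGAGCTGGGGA
Mup3: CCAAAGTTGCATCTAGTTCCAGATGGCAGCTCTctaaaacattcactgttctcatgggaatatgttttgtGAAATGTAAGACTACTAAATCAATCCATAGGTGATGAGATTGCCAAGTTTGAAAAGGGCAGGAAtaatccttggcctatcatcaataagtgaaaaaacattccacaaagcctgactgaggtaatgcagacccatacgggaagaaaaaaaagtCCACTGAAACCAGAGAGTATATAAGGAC
Mup21: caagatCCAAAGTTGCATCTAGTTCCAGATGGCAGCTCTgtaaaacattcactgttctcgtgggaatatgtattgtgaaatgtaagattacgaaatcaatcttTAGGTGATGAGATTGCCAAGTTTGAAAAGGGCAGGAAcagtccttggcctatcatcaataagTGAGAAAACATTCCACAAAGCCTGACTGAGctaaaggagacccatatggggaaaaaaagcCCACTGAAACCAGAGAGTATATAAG
All 250 bases of Mup11 fell in such shared runs, against 48.4% in Mup4 and 50% in both Mup3 and Mup21. The letters TATATAA, searched on both strands of the 250 bases before to 50 bases after each start, occurred in all 4 promoters. They also occurred in 13 of the 14 Mup genes with a promoter in the table, and in 3.24% of its 32851 promoters. In Mup11 the match began 2 bases before the start, so its last letters lie beyond the sequence shown. In Mup4 it began 29 bases before the start, in Mup3 11 and in Mup21 8.

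No called peak lay over any of these 4 promoters in either genotype. Over the genome the lists held 20.45 WT and 15.75 KO peaks per Mb, so a stretch as short as a promoter would seldom hold one. The share of all promoters with a called peak was not counted. The absence of peaks at these 4 starts is therefore a description, and no lack of the mark there is read from it. The nearest WT peak was 2877 bp from the Mup11 promoter, 3110 bp from that of Mup4, 4036 bp from that of Mup3 and 5295 bp from that of Mup21. In KO the nearest peaks were 2723 bp away for Mup11 and 4405 bp for Mup4, but 27553 bp for Mup3 and 60589 bp for Mup21. The peaks described below are therefore peaks in gene bodies and in the flanks, not at the starts of these 4 genes. For Mup5, Mup20 and Mup22 the table gave no strand, so their peaks are placed by the lower or upper end of the gene.

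Across the 7 genes WT had 8 peaks and KO had 19, in windows that covered 0.158 Mb in all. The exact Poisson 95% interval, which covers counting error only, was 3.45 to 15.8 for WT and 11.4 to 29.7 for KO. A WT peak was found at 5 of the 7 genes, beside 48% of all protein-coding genes. A KO peak was also found at 5 of 7, beside 33.5% of all genes, and 4 of 7 had a peak in both lists, beside 24.4%. Mup4, Mup5, Mup11 and Mup22 had peaks in both genotypes, Mup3 in WT alone, Mup20 in KO alone and Mup21 in neither. Since the genes were listed from these peaks, nothing is read from these shares.

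All the peaks were low. Pileup ran from 4 to 9 fragments in both genotypes, with a median of 6.5 in WT and 5 in KO. Only 3 peaks in each list reached 8 fragments. Of the WT peaks, 2 lay inside a gene and 6 outside, whereas 11 of the KO peaks lay inside and 8 outside. The 2 long genes, Mup5 and Mup20, held 10 of the 11 KO peaks inside genes. A caller q of 0.05 or smaller was met by 4 of 8 WT peaks and 9 of 19 KO peaks. The median peak was 134 bp long in WT and 96 bp in KO.

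**Figure D1:**
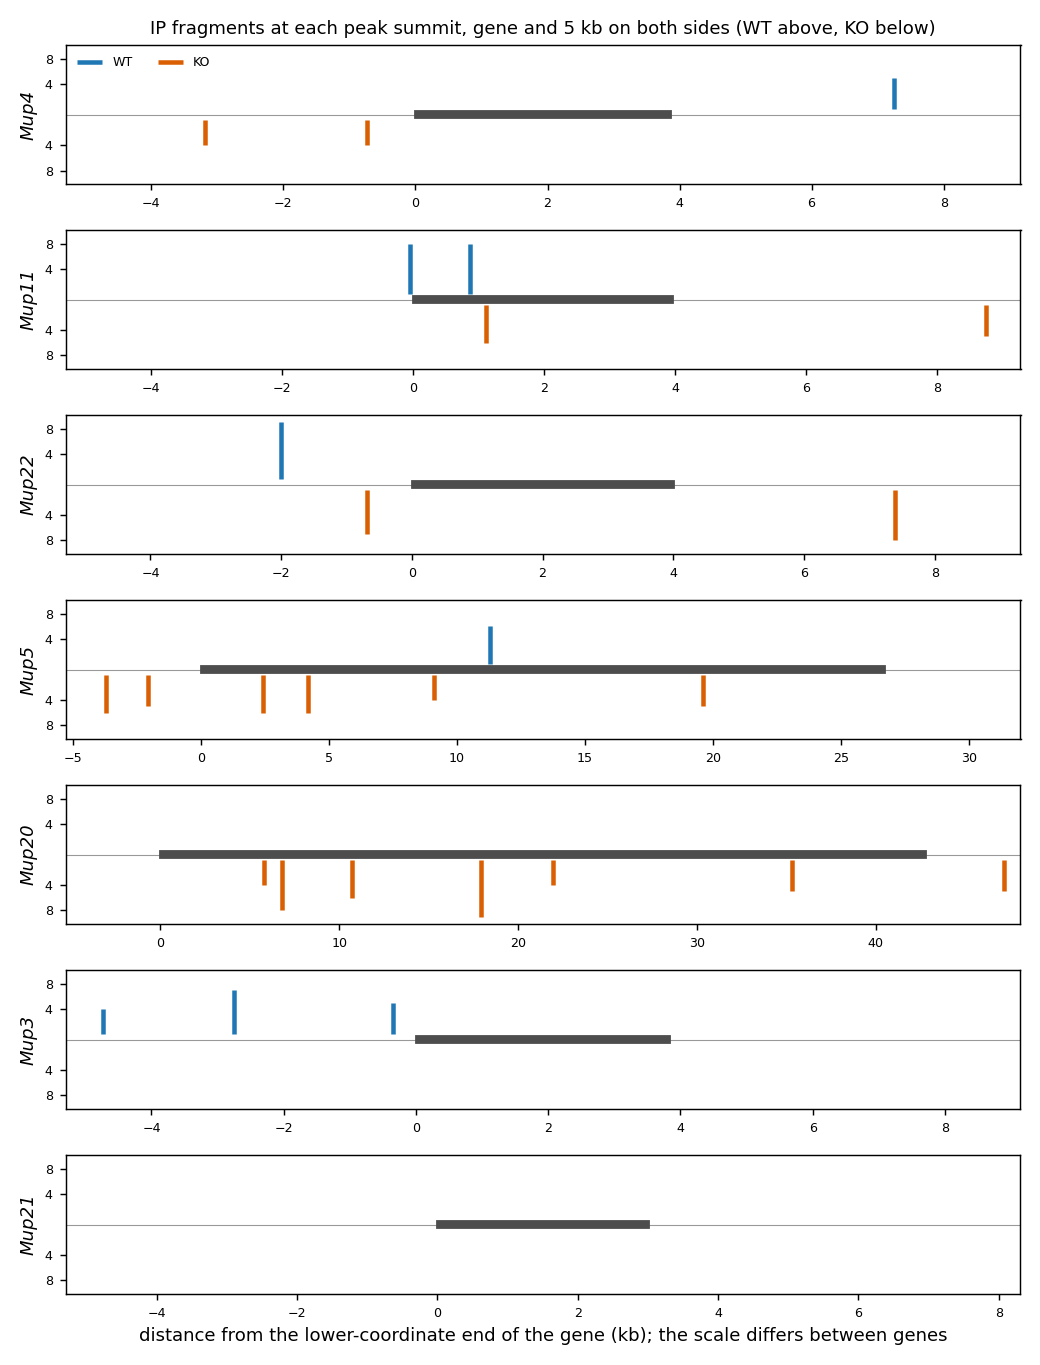
Each panel shows 1 gene (dark bar) with 5 kb on both sides, on an axis of kb from its lower-coordinate end whose scale differs between genes; blue lines above mark WT peaks and orange lines below mark KO peaks, with line height giving IP fragments at the summit. Mup20 has 7 KO peaks and no WT peak, Mup3 has 3 WT peaks and no KO peak, and Mup21 has none.

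Mup20, on chromosome 4 from 62011337 to 62054143, encodes darcin, the male pheromone that attracts females. It had no WT peak and 7 KO peaks. From the lower to the upper coordinate their pileups were 4, 8, 6, 9, 4, 5 and 5 fragments. The first 6 lay inside the gene and the last lay 4336 bp above it. The highest, at 62029247 to 62029368, had a fold of 6.38 and a caller −log10 q of 4.16, and ranked 172 by caller p among all 41907 KO peaks. It also lies inside the pseudogene entry Mup-ps21, which sits within the span of Mup20. The peak of 8 fragments, at 62018024 to 62018249, had a fold of 5.74. Of the 996 genes whose length was within 10% of that of Mup20, 67.3% had a WT peak, with a mean of 1.22 peaks a gene. The KO mean of those genes was 0.911, and 5 of them, Mup20 included, had at least 7 KO peaks. Here and below, the genes of like length include the listed gene itself and any other Mup gene of that length. Just above the window, a WT peak of 5 fragments lay 5102 bp from the gene and a KO peak of 9 fragments 5415 bp from it, so the absence of WT peaks holds for the 5 kb window but not for 10 kb.

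Mup5, from 61831319 to 61858043, is known from secretory glands such as the salivary and lacrimal glands. Its single WT peak, at 61842498 to 61842716 inside the gene, had 6 fragments and a fold of 3.59. Its 6 KO peaks had 6, 5, 6, 6, 4 and 5 fragments, with 2 below the gene and 4 inside it. The 2 outside lay 3628 and 2009 bp below the lower end. The folds of the 3 KO peaks with 6 fragments were 4.11, 4.47 and 4.47. The KO peak closest to the WT peak, at 61840411 to 61840494, was 2004 bp away. The genotypes therefore had the same highest pileup at Mup5 but different sites and a different number of peaks. Among 1264 genes of like length the mean was 0.824 peaks in WT and 0.539 in KO, and 8 of those genes, Mup5 included, had at least 6 KO peaks.

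Mup11, from 60658466 to 60662432, belongs to the central group of near-identical copies. In WT it had 2 peaks of 8 fragments each, and in KO 2 peaks of 6 and 5 fragments. One WT peak, at 60658271 to 60658441 with a fold of 5.22, lay past the 3′ end of the gene, 25 bp from it. The other, at 60659141 to 60659469 with a fold of 5.32, lay inside the gene, was 329 bp long and ranked 491 of 54397 by caller p. The first KO peak, at 60659545 to 60659623 with a fold of 4.47, began 76 bp from that WT peak, the smallest distance between genotypes at any of the 7 genes. The second KO peak lay 4717 bp upstream. Mup11 was thus the gene where the genotypes came closest to a common site, in the part of the gene nearer its 3′ end. Of 671 genes of like length, 33 had at least 2 WT peaks and 20 at least 2 KO peaks, with Mup11 and other Mup genes among them.

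Mup22, from 60817586 to 60821597, is also a central copy. It had 1 WT peak of 9 fragments, at 60815473 to 60815623, which lay 1963 bp below the gene. Its 2 KO peaks had 7 and 8 fragments. These lay 547 bp below the gene, at 60816848 to 60817039, and 3313 bp above it, at 60824910 to 60825000. The KO pileups were lower than the WT pileup, but the KO folds of 5.10 and 5.74 were higher than the WT fold of 4.08. The local background under the WT peak was 1.45 fragments, 2.096 times the genome-wide level, while under both KO peaks it was at the genome-wide level. The WT value is the weight of 1 input fragment scaled to the IP depth. After filtering, the WT IP held 13615838 fragments and its input 9385834. The same 1.45 fragments stood under other WT peaks of the cluster.

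Mup4, from 59956804 to 59960667, is the lowest gene of the cluster and, like Mup5, is known from secretory glands. The WT list had 1 peak of 5 fragments 3360 bp upstream, at 59964027 to 59964141, with a fold of 3.48. The KO list had 2 peaks of 4 fragments past the 3′ end, 591 and 3172 bp from it, both with a fold of 3.19. No peak lay in the gene. A summit of 4 fragments is the lowest that either list holds near these genes. The 3 peaks of Mup4 had a caller −log10 q of 0.75 in WT and 0.49 in KO.

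Mup3, from 62083476 to 62087317, had 3 WT peaks and no KO peak. The WT pileups were 4, 7 and 5 fragments at 4639, 2714 and 244 bp past the 3′ end. The middle peak, at 62080645 to 62080762, had a fold of 4.73 and was the only one of the 3 with a caller q under 0.05. Of 618 genes of like length, 2 had at least 3 WT peaks. Mup3 and Mup20 are neighbours with opposite patterns. Mup21, from 62147832 to 62150841, is the highest gene of the cluster and had no peak in either genotype. Among 507 genes of its length 20.9% had a WT peak and 5.72% a KO peak. The nearest WT peaks, of 5 and 9 fragments, lay just outside the window, 5545 and 6412 bp above the gene.

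The 5 kb limit cut through runs of similar peaks. Just inside it were a KO peak of 5 fragments 4717 bp from Mup11, a WT peak of 4 fragments 4639 bp from Mup3 and a KO peak of 5 fragments 4336 bp from Mup20. Just outside it, besides the peaks near Mup20 and Mup21, were a WT peak of 8 fragments 5693 bp below Mup11 and a WT peak of 6 fragments 6070 bp below Mup22.

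Per kb of window, KO peak density in the 5 genes with KO peaks ran from 0.133 at Mup20 to 0.163 at Mup5. Mup4, Mup11 and Mup22 lay between, at 0.144, 0.143 and 0.143 peaks per kb. KO density was 0 at Mup3 and Mup21. WT density was 0.217 at Mup3, 0.143 at Mup11, 0.0721 at Mup4, 0.0714 at Mup22 and 0.0272 at Mup5, and 0 at Mup20 and Mup21. These densities rest on at most 7 peaks a gene, so their spread is not compared between genotypes. The higher KO count was carried by the long genes, which alone held 13 of the 19 KO peaks and 1 of the 8 WT peaks. Without Mup5 and Mup20, a comparison added after the values were seen, the other 5 genes had 7 WT and 6 KO peaks.

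No WT peak overlapped a KO peak at any of the 7 genes. With 0 of 8 WT peaks shared, a share of up to 37.5% remains possible, and with 0 of 19 KO peaks, up to 15.8%. Sharing was rare everywhere, since 0.853% of all WT peaks and 1.1% of all KO peaks overlapped a peak of the other list by at least 1 bp. In the whole cluster 2 WT peaks overlapped a KO peak, which was 3.23% of the 62 WT peaks, with an exact binomial 95% interval of 0.393 to 11.2. They were 1.80% of the 111 KO peaks, with an interval of 0.219 to 6.36. One of these sites lay in the entry Mup-ps16 and had 6 fragments in each genotype. Its WT peak spanned 61785522 to 61785764, and its KO peak 61785504 to 61785683. Scaled to library size, KO over WT was 0.880 there, with an exact binomial 95% interval of 0.235 to 3.29. The other lay outside any gene of the table. Its WT peak, from 61616295 to 61616432, had 6 fragments and its KO peak, from 61616222 to 61616395, had 4. Its scaled ratio of 0.587 had an interval of 0.122 to 2.48, so a difference between genotypes was not detectable at this depth at either site. Neither site was in the window of a listed gene. With summits within 500 bp as the criterion, 5 of the 62 WT peaks (8.07%, 2.67 to 17.8) had a KO partner in the cluster, 1 of them the peak inside Mup11. The share of all WT peaks that meets this wider criterion was not counted. The 8.07% is therefore not to be set beside the 0.853% above, and no common site is read from it.

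The 7 genes lie in a cluster of 2.204 Mb, taken from 59951804 to 62155841, which is 5 kb beyond its first and last Mup entries. It held 62 WT peaks and 111 KO peaks. WT had 28.1 peaks per Mb against 20.5 over the genome, 1.38 times as many (1.06 to 1.76, Poisson interval on the cluster count). KO had 50.4 per Mb against 15.8, 3.20 times as many (2.63 to 3.85). The KO to WT ratio of peak numbers was 1.79 in the cluster (exact binomial 95% interval 1.30 to 2.48), the opposite direction from the genome, where it was 0.770. In stretches of the same length on both sides of the cluster the counts were 112 in WT and 75 in KO, a ratio of 0.670 (0.493 to 0.905). The higher KO number of the cluster was not seen in these flanks.

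**Figure D2:**
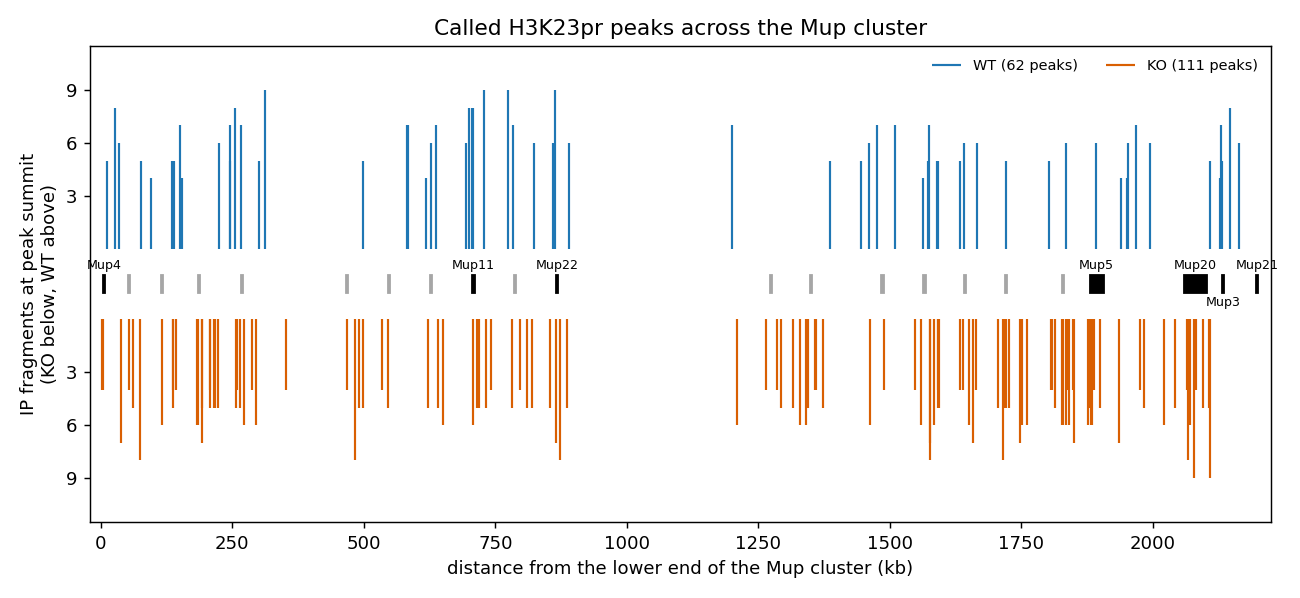
Called peaks along the Mup cluster, with kb from its lower end on the horizontal axis and IP fragments at the summit on the vertical axis, WT above and KO below; black boxes are the 7 named genes and grey boxes the other Mup genes, drawn to scale with a minimum width. The 62 WT and 111 KO peaks reach 4 to 9 fragments, and neither list has a peak in a stretch of 308.7 kb in the middle.

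Neither genotype had a peak between 60842185 and 61150843, a stretch of 308.7 kb that lies above Mup22 and holds no Mup entry. The next longest stretch without a peak, 115.7 kb from 60304943 to 60420688, held 3 Mup entries. Whether the assembly has sequence across these stretches was not tested.

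To set the cluster beside other regions, the genome was divided into 1197 tiles of its length. The tiles had a median of 46 WT and 34 KO peaks. KO counts at least as high as in the cluster were found in 2 tiles, or 0.167%, whereas 209 tiles had at least as many WT peaks. Of the 1126 tiles with at least 10 WT peaks, 3, or 0.266%, had a KO to WT ratio as high as the cluster. The median ratio was 0.75, with the 5th and 95th percentiles at 0.317 and 1.19. Because the Mup genes were listed with these peaks known, the position of the cluster among the tiles is a description.

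**Figure D3:**
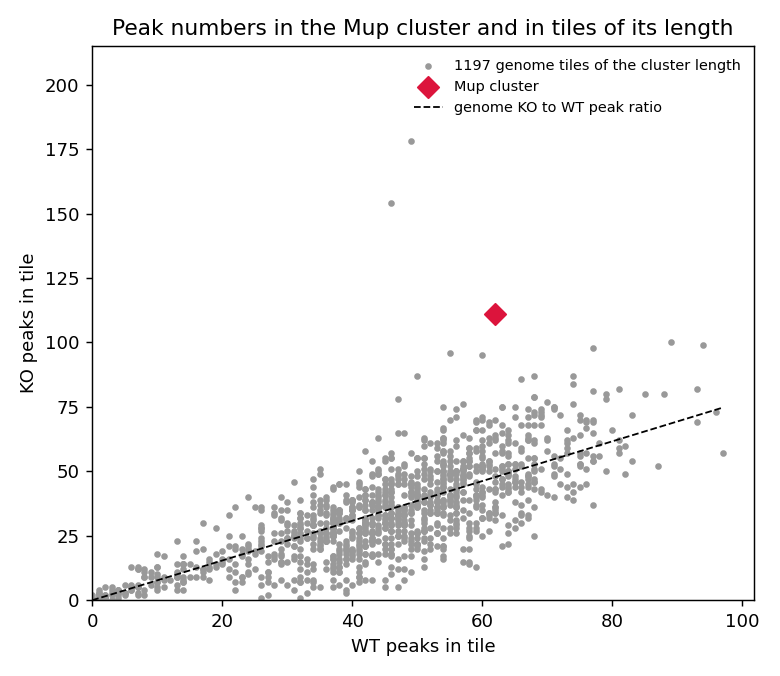
Peaks in WT (horizontal axis) and KO (vertical axis) in 1197 genome tiles of the length of the Mup cluster (grey points) and in the cluster (red diamond), with a dashed line at the genome ratio of 0.770 KO peaks per WT peak. The cluster, with 62 WT and 111 KO peaks, sits above the line, and 2 tiles have more KO peaks.

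The ratio depended on summit height. Counting peaks with at least 5 fragments, the cluster had 55 in WT and 80 in KO, a ratio of 1.46 (1.02 to 2.09). With at least 6 fragments the counts were 38 and 41, a ratio of 1.08 (0.677 to 1.72), against 0.671 over the genome. Summits of 4 and 5 fragments thus made up most of the difference in number. The WT peaks of the cluster were higher than WT peaks elsewhere, since 61.3% had at least 6 fragments against 34.3% of the whole WT list. In KO these shares were 36.9% and 29.9%. At 6 or more fragments both genotypes stood high among the tiles, where 6 tiles had as many WT peaks and 3 as many KO peaks, against tile medians of 15 and 9. At a caller q of 0.05 or smaller the cluster had 17 WT and 38 KO peaks, a ratio of 2.24 (1.23 to 4.22), close to the genome ratio of 2.202 at that threshold.

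**Figure D4:**
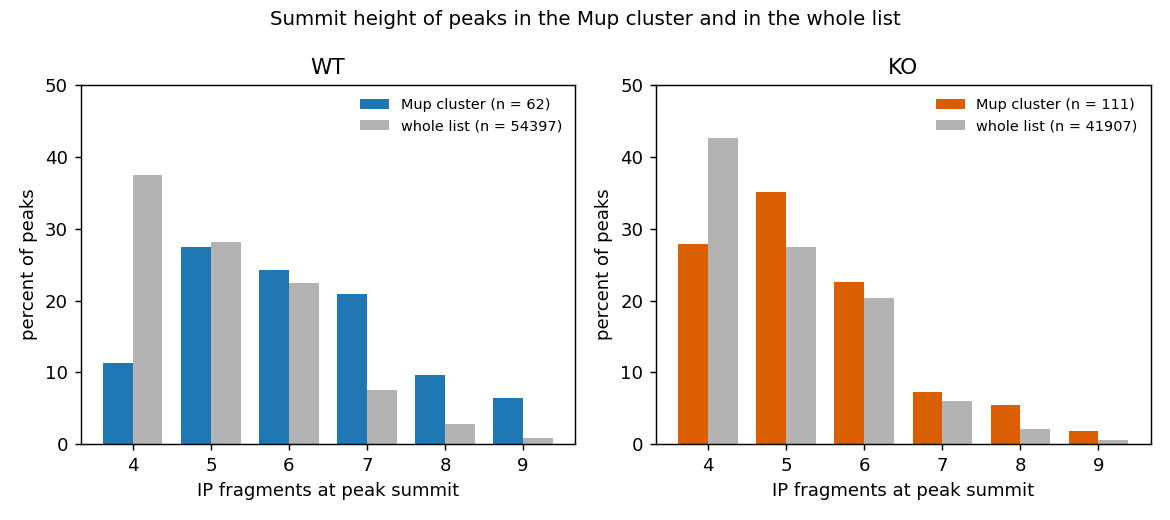
Share of peaks (vertical axis, percent) at each summit height from 4 to 9 IP fragments (horizontal axis) in the Mup cluster (coloured bars) and in the whole list (grey bars, whose peaks above 9 fragments are not drawn), with WT on the left and KO on the right. Summits of 4 fragments make up 11.3% of the WT peaks in the cluster against 37.5% of the WT list.

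Low summits were scarce in the WT list of the cluster. Summits of 4 fragments made up 11.3% of its WT peaks (exact binomial 95% interval 4.66 to 21.9) against 37.5% of all WT peaks. In KO they made up 27.9% (19.8 to 37.2) against 42.6%. The local background is seen only under called peaks, and the p cutoff limits it unlike in WT and KO. A WT summit of 4 fragments passed only up to 1.07 times the genome-wide level. None could therefore count as raised here, so the WT shares are linked by the cutoff. In KO such a summit passed up to 1.30 times. The WT and KO shares are therefore not compared with each other. A background over 1.1 times the genome-wide level was found under 25 of the 62 WT peaks, or 40.3% (28.1 to 53.6), against 10.6% of all WT peaks. In KO it was found under 13 of 111, or 11.7% (6.39 to 19.2), against 12.2%. Above 1.5 times the level were 11 WT peaks, or 17.7%, against 5.16% of the list, and 2 KO peaks, or 1.80%, against 2.70%. Most of these 11 WT peaks had a background of 1.45 fragments, the weight of 1 input fragment, so their raised level rests on single fragments.

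The caller's p cutoff of 0.001 ties these quantities together. From its Poisson model, a summit of 4 fragments passed only where the background was at most 0.739 fragments, which is 1.07 times the WT level and 1.30 times the KO level. A summit of 5 fragments passed up to 1.11 fragments, 1.60 times the WT level and 1.95 times the KO level. By this arithmetic, a 4-fragment site leaves the WT list at a smaller relative rise in background than the KO list. A summit of 6 fragments passed up to 1.52 fragments. The weight of 1 input fragment, filtered IP fragments over filtered input fragments, is below this limit in WT and above it in KO. A summit of 6 over 1 input fragment can therefore be in the WT list but not in the KO list. The part of the background in the higher KO count was not tested, because sites that missed the cutoff are not in the lists. Fragment length, library depth and genotype also differed together and cannot be told apart here.

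Most WT peaks with a raised background lay in the middle of the cluster. The stretch of 1.73 Mb from Mup7 to Mup19 holds Mup11 and Mup22. There 22 of 45 WT peaks had a raised background, or 48.9% (33.7 to 64.2). In KO it was 8 of 82 peaks, or 9.76%, under the unlike limits given above. Above Mup19, where Mup5, Mup20, Mup3 and Mup21 lie, it was 2 of 12 WT peaks (16.7%) and 4 of 23 KO peaks (17.4%). In the surroundings of the cluster it was 15.2% in WT and 14.7% in KO. Below Mup7, where Mup4 lies, it was 1 of 5 and 1 of 6. The KO to WT ratio of peak numbers was 1.82 (1.25 to 2.68) from Mup7 to Mup19, 1.92 (0.915 to 4.23) above Mup19. Below Mup7 there were 5 WT and 6 KO peaks, whose ratio had an interval of 0.305 to 4.97, so the 3 intervals overlap. With at least 6 fragments, the central part had 29 WT and 28 KO peaks, the part above Mup19 had 7 and 11 and the part below Mup7 had 2 and 2. At the listed genes themselves, the background was raised under the WT peaks of Mup22 and Mup5 and under 1 KO peak each of Mup11 and Mup5.

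Near-identical copies limit where a fragment can be placed. With windows of 71 bases, the mean KO fragment length, 138 of the 230 windows in the Mup11 promoter, or 60%, occurred letter for letter in the promoter of another gene. Those windows matched 7 other Mup genes. In Mup4, Mup3 and Mup21 it was 0 of 230. With 97 bases, the mean WT fragment length, it was still 103 of 204 windows in Mup11, or 50.5%, and 0 in the other 3 genes. Only the promoters in the table were searched, which has none for Mup5, Mup20 and Mup22, and not the rest of the genome. A share of 0 therefore does not show that a fragment fits a single site. Among other Mup genes the 71-base share was highest for Mup15 (99.1%) and Mup19 (96.1%), followed by Mup17 (66.5%), Mup2 (44.4%), Mup9 (43.9%), Mup18 (24.4%) and Mup14 (20%). It was 0 in Mup6, Mup7 and Mup10. In all, 8 of 14 Mup genes shared such a window, beside 17.7% of the 27025 genes in the promoter table. At 30 bases even the diverged genes shared some windows, 22.1% in Mup4, 16.2% in Mup3 and 9.59% in Mup21.

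**Figure D5:**
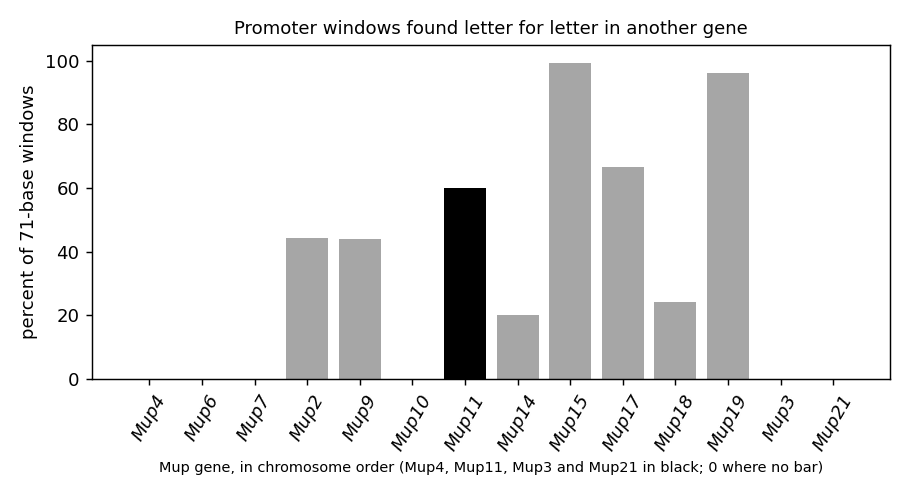
Share of 71-base windows in each 300-base promoter that occur letter for letter in the promoter of another gene (vertical axis, percent), for the 14 Mup genes with a RefSeq promoter in chromosome order; black marks the named genes. Mup11 has 60%, while Mup4, Mup3 and Mup21 have 0%.

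In local alignments, which leave out ends that do not match, the Mup11 promoter was 98.9% identical to that of Mup17 and 98.5% to that of Mup2, but 82.2% to Mup4, 77.2% to Mup3 and 75.2% to Mup21. The promoters of Mup3 and Mup21 were 93.3% identical to each other. WT peaks lay within 5 kb of Mup3 and not of Mup21, but within 10 kb of both. Mup4 was closer to its neighbour Mup6, at 93.2%, than to Mup3 (88.3%) or Mup21 (84.6%). How fragments that fit several copies were treated is not given in the sources used here. A peak in the window of Mup11 or Mup22 may hold fragments of other copies, and whether any does was not tested. No promoter was held for Mup22. The sequence under the peaks themselves was not used here, so these shares describe promoters and not peak sites.

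To see whether peaks recurred at 1 place of the copies, summits were placed by their distance from the lower end of the 19 Mup genes of usual length, 3794 to 4065 bp. In WT, 4 genes had a summit in the 1 kb of the gene next to its lower end, the most of any 1 kb bin. These were Mup8, Mup10, Mup11 and Mup17, and in the latter 3, on the minus strand, this is the 3′ end. In KO no bin held more than 4 peaks, and the bins with 4 lay below the gene and more than 7 kb above its lower end. No position was thus marked in most copies in either genotype.

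Among the other 17 protein-coding Mup entries, a KO peak was found at 16, beside 33.5% of all protein-coding genes, and a WT peak at 9, beside 48%. Most of these entries are near the length of Mup22. Of the 678 genes within 10% of that length, Mup genes included, 13% had a KO peak and 24.3% a WT peak. All 9 of the 17 with a WT peak also had a KO peak, which 16 of the 17 had. Of the 17, none had WT peaks alone, 7 had KO peaks alone, and Mup13 had neither. Of the 7 listed genes, 5 were in each list, 1 had WT peaks alone and 1 had KO peaks alone. Since they were listed from these peaks, no contrast with the other 17 is drawn. Over all 24 entries 14 had a WT peak and 21 a KO peak, beside 48% and 33.5% of all protein-coding genes. Mup2 had 4 KO peaks and no WT peak, and Mup18 had 4 KO peaks and 1 WT peak. Counting each peak once, the 24 windows held 19 WT and 52 KO peaks, a ratio of 2.74 (1.59 to 4.90) and a density of 40.3 and 110.3 peaks per Mb. The 24 include Mup-ps12 and Mup-ps16, listed as protein-coding despite their pseudogene names. Mup-ps12, of 97893 bp, had 5 WT and 8 KO peaks, and Mup-ps16, of 18169 bp, had 1 and 7. Mup5 had 1 and 6 and Mup20 had 0 and 7, so long entries weigh on this ratio too. Mup3 was the single entry of the 24 with WT peaks alone.

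Other clusters of similar liver genes were counted in the same gene windows. The 15 Cyp2c genes, which encode drug-metabolising cytochromes, had 46 WT and 38 KO peaks, a ratio of 0.826 (0.523 to 1.30). The 7 Cyp3a genes had 11 and 16, a ratio of 1.46 (0.634 to 3.47), and the 16 Serpina1 and Serpina3 genes, which encode secreted protease inhibitors, had 7 and 6, a ratio of 0.857 (0.238 to 2.98). The intervals of the Cyp3a and Serpina genes cover both the genome ratio and that of the Mup cluster. The order changed with the threshold, since with at least 6 fragments the Serpina genes had 1 WT and 3 KO peaks, and at a caller q of 0.05 or smaller the Cyp3a genes had 1 and 4. A raised WT background was found under 8.70% of the WT peaks of the Cyp2c genes and under 2 of the 11 at the Cyp3a genes.

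Of the 17 genes listed as neighbours of the cluster, 10 had a WT peak (58.8%, beside 48% of all genes) and 5 a KO peak (29.4%, beside 33.5%). Peaks in both lists were found at 3, beside 24.4% of all genes. Of 21 regulators of Mup expression, 16 had a WT peak (76.2%, beside 48% of all genes) and 12 a KO peak (57.1%, beside 33.5%). These genes are long, with a median of 78.3 kb against 17.2 kb for all genes, and a longer gene has more room for a peak. Ghr, the growth hormone receptor, had 10 WT and 21 KO peaks. The nuclear factor gene Nfia had 18 and 22, Nfib 9 and 15, and the prolactin receptor gene Prlr 9 and 9. Stat5a had 2 WT peaks and Stat5b 1, and neither had a KO peak.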

How the data were processed

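The data were 2 deposited peak lists, 1 per genotype, each from an H3K23pr IP called against its own input. The submitters' processing notes name cutadapt 1.9.3, Bowtie2 2.2.4 and the build mm10. The caller, per the file headers, was MACS2 2.1.1.20160309, run per library on read pairs with a p cutoff of 0.001 and no more than 2 fragments kept at identical ends. The pileup deposited by the authors is an unscaled signal, counting IP fragments at the summit. The fold deposited by the authors is a ratio of pileup to local background, each with 1 added. The p and q of each peak were deposited by the authors as −log10 values, and were used only within a list, for ranks and filters. The headers stated that q would not be calculated, yet the column held values.

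The local background was taken back from pileup and fold. A Poisson p computed from it was within 0.01 of the deposited −log10 p for 99.9945% of WT and 99.9976% of KO peaks. Genes, promoters and their coordinates came from RefSeq tables of GRCm38.p6, matched by symbol. Protein-coding genes past the first 3 Mb of each chromosome were counted. Counts were computed with Python 3.11.15, pandas 2.3.3 and scipy 1.17.1, and the counting and interval code was tested on simulated data. Intervals are exact Poisson or exact binomial (Clopper-Pearson) at 95%. Fragments without molecular identifiers are not independent molecules, so intervals cover counting error only, and so does the limit for a count of 0, taken as 3 counts. Alternatives were the caller q, summit height, window width, overlap rule, set of Mup genes and reference density. The named genes, gene lists and comparison clusters were chosen with earlier results of these data known.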

Additional observations from a re-analysis of the deposited data

How the results depend on the processing

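Counting peaks by summit left the numbers near the 7 genes at 8 in WT and 19 in KO, and at least 5 fragments gave 7 and 14. WT peaks, 8 as called, were 4 at a caller q of 0.05 or smaller, 5 with at least 6 fragments, 2 in gene bodies, 5 within 2 kb, 13 within 10 kb and 19 over all 24 Mup entries. KO peaks, 19 as called, were 9 at that q, 9 with at least 6 fragments, 11 in gene bodies, 13 within 2 kb, 21 within 10 kb, 52 over all entries and 6 without Mup5 and Mup20. Genes with a WT peak, 5 of 7, were 3 at that q, 2 by gene body, 7 within 10 kb and 14 of all 24. Genes with a KO peak, 5 of 7, were 3 by gene body, 5 within 10 kb, 21 of all 24 and 3 of 5 without Mup5 and Mup20. Genes with both, 4 of 7, were 2 at that q, 2 by gene body and 13 of all 24. The overlap of 0 became 1 over all entries and 1 with summits within 500 bp. WT density of the cluster over the genome, 1.38, was 3.96 at that q, 1.95 with at least 5 and 2.46 with at least 6 fragments. KO density, 3.20, was 4.02, 4.02 and 3.95. Against chromosome 4 alone the densities were 1.29 and 2.97 times. In all, 38 of 66 alternatives stayed within the set tolerance (1.5 times for a count, the counting interval for a density) and 28 did not. KO peaks outnumbered WT peaks at the 7 genes under each alternative except without Mup5 and Mup20 (6 against 7), an alternative added after the values were seen. No paired analysis was possible because each genotype had 1 library. With 4 to 9 fragments a summit, depth limits any statement on a single peak.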

Other observations

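Apart from the Mup cluster, KO peaks were most numerous in 2 other tiles of its length. On chromosome 1, a tile with the interferon-induced nuclear body genes Sp100, Sp110 and Sp140 had 178 KO and 49 WT peaks, of which 155 and 31 had at least 6 fragments. On chromosome 8, a tile with beta-defensin genes such as Defb4 and Defb14, which encode antimicrobial peptides, had 154 KO and 46 WT peaks. Both hold tandem gene families, as the Mup cluster does, but how many of all tiles hold such families was not counted. Whether this bears on the KO counts was not tested. The next 3 tiles by KO count were that of Acss3 on chromosome 10, with 100 KO and 89 WT peaks, that of Alb, the albumin gene, on chromosome 5, with 99 and 94, and a tile beside it with Ugt2b and Sult1 genes of conjugation, with 98 and 77. These 5 tiles were taken in order of KO count after the values were seen.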
